A study of Rattus norvegicus with 6 samples.

Results

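The potassium channel gene family was taken as every gene symbol in the authors' table that starts with Kcn followed by a lower-case letter. This gave 91 of the 17366 listed transcripts, 1 per symbol: 64 pore subunits, 10 electrically silent subunits that modify other pores, and 17 auxiliary subunits. They were measured in retinal ganglion cells (RGCs), the neurons whose axons form the optic nerve, cultured from Sprague Dawley rats labelled postnatal day 5 and grown for 10 days. The last 12 h were with either 1 µg/ml of Chrdl1, a secreted binding partner of bone morphogenetic proteins, or vehicle, which held 0.1% BSA and 4 mM HCl. Each group has 3 libraries, made with a stranded mRNA kit. Each title ends in a numeric code that 1 vehicle and 1 Chrdl1 library share, and the libraries are called here by these codes as pairs A, B and C. The meaning of the code is not given. Because the labels do not state whether a group's libraries are independent cultures, a p-value reflects library-to-library spread, which may be technical.

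Potassium channels let potassium leave the cell and so set the resting potential, end the action potential and limit how fast a neuron can fire. Voltage-gated channels open on depolarization. Inward rectifiers and two-pore domain channels pass current near rest, and calcium- and sodium-activated channels couple the membrane to ion entry. Auxiliary subunits bind the pore proteins and change their gating or their delivery to the membrane. RGCs fire long trains of spikes, and the shape and spacing of those spikes depend on these channels.

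Levels are given in FPKM, a unit scaled to transcript length and library size, so they can be compared between genes. Read totals recovered from the FPKM scale ran from 14546600 to 26551800 per library, and 1 read on 1 kilobase of transcript was worth 0.0377 to 0.0687 FPKM. The RGC gene Rbpms was at 78.4 to 98.1 FPKM in all 6 libraries and the astrocyte gene Gfap at no more than 1.24 FPKM. Of 13 astrocyte and Müller glia markers, 5 reached at least 1 FPKM in at least 3 libraries. Among these 5, Apoe was at 58.9 to 1490 FPKM, Glul at 51.5 to 82.5 and Vim at 16.7 to 70.9. One label names visual cortex as the RNA source, and the others name RGC cultures. Libraries of pair C carried more transcript of other retinal cells. Summed photoreceptor markers (11 measured of 12, none at 0 in all libraries) were at 101.2 and 107.5 FPKM there and at 5.25 to 8.01 in the other 4 libraries. Most of the sum in pair C came from Gnat2, at 49.0 and 54.2 FPKM, and Crx, at 44.4 and 45.5. Summed bipolar cell markers (8 measured of 8, none at 0 in all libraries) were at 54.8 and 57.3 FPKM in pair C and 16.7 to 19.1 elsewhere. Pair B carried less microglial transcript: 18 markers summed to 54.0 and 39.9 FPKM there and to 268 to 394 elsewhere. In bulk RNA, fewer cells of a type and less RNA per cell cannot be told apart.

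The family spanned a wide range of expression. In the mean over 6 libraries, 17 members reached at least 10 FPKM, 40 lay from 1 to under 10, 18 from 0.1 to under 1, 13 were above 0 and under 0.1, and 3 were at 0 in every library. At least 1 FPKM was reached in all 6 libraries by 47 members, and 26 were under 1 FPKM in all 6. A few genes held most of the total. The 12 most abundant made up 58.3% to 64.6% of the summed FPKM of the family, which was itself 471 to 570 FPKM per library. Both pair C libraries had the lowest totals, 471 FPKM in vehicle and 519 in Chrdl1.

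**Figure D1:**
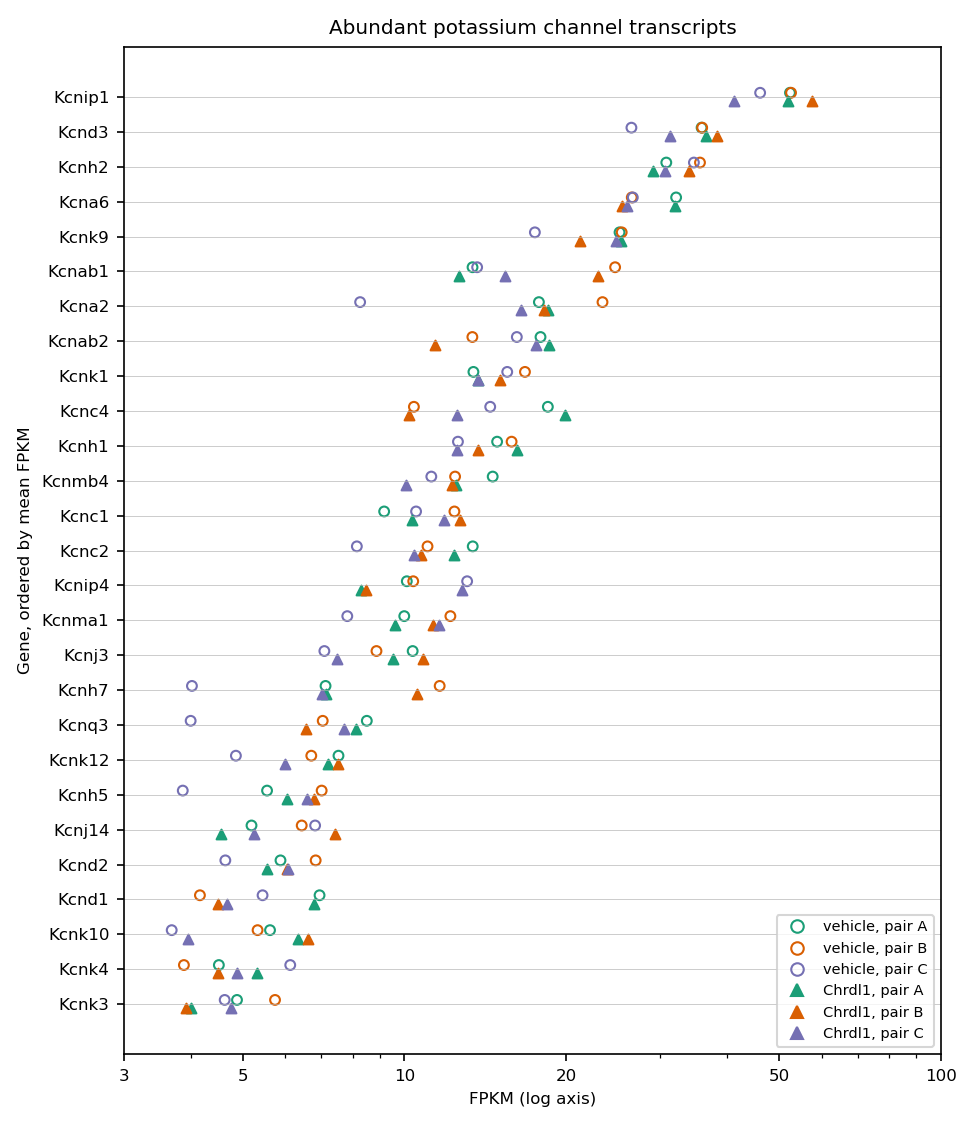
FPKM (horizontal, log axis) of 27 abundant members in each library; open circles are vehicle, filled triangles Chrdl1, and colours are pairs. Kcnip1 lies above Kcnd3 in all 6 libraries, and the vehicle library of pair C is the lowest for Kcna2 and Kcnh7.

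Kcnq3 encodes a pore subunit of the M-channel, a slow channel that restrains repeated firing. Its vehicle libraries, in the order A, B, C used from here on, were at 8.51, 7.04 and 3.99 FPKM, and its Chrdl1 libraries at 8.11, 6.54 and 7.70 FPKM. The vehicle library of pair C was the lowest, and the groups overlapped. Kcnq5 averaged 3.20 FPKM, and Kcnq1, known from heart and epithelia, 0.0590.

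The A-type channels open and inactivate at voltages below the spike threshold. Kcnd3, on chromosome 2 (207923775 to 208140727 of rn6, plus strand), was at 35.8, 35.9 and 26.5 FPKM in the vehicle and 36.5, 38.2 and 31.3 in the Chrdl1 libraries. It exceeded its relative Kcnd2 by 5.15 to 6.59 times in every library, and Kcnd1 averaged 5.41 FPKM. Kcnip1 encodes a calcium-binding subunit (a KChIP) that assembles with these pores. It lies on chromosome 10 (18558128 to 18784083, minus strand) and was at 52.3, 52.5 and 46.0 FPKM in vehicle and 51.8, 57.6 and 41.1 in Chrdl1 libraries. Its level was 1.31 to 1.74 times that of Kcnd3, and their ranges did not overlap. Another KChIP, Kcnip4, averaged 10.5 FPKM and Kcnip3 averaged 1.09. Dpp6, a membrane protein that also joins these channels and is no member of the family, was at 46.4 to 67.8 FPKM.

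Among shaker-related channels, which shape spikes along axons, Kcna6 led in all 6 libraries. It was at 32.1, 26.5 and 26.6 FPKM in vehicle and 32.0, 25.4 and 26.04 in Chrdl1 libraries. Kcna2, a subunit placed beside nodes of myelinated axons, was at 17.8, 23.4 and 8.27 FPKM in vehicle and 18.5, 18.2 and 16.5 in Chrdl1 libraries. The vehicle library of pair C stood below the other 5. Kcna1, its frequent partner, averaged 3.36 FPKM, and the Kcna6 level was 1.13 to 3.22 times that of Kcna2. Their cytoplasmic beta subunits were abundant too, Kcnab1 at a mean of 17.1 and Kcnab2 at 15.8 FPKM. Kcna7 averaged 0.108 FPKM, and Kcna10 had reads in 1 library.

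The shaw-related channels, which repolarize fast-spiking neurons, were detected in every library. Kcnc4, Kcnc1 and Kcnc2 averaged 14.3, 11.2 and 11.02 FPKM. Kcnc4 led in 4 of 6 libraries; in pair B it was at 10.4 and 10.2 FPKM, below Kcnc1 at 12.4 and 12.7. The delayed rectifier subunit Kcnb2 averaged 1.75 FPKM. The silent subunits, which do not form channels alone but modify other pores, were low: of 10 members only Kcns2 reached a mean of 1 FPKM, at 1.80.

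Kcnh2, an ERG channel also known from cardiac repolarization, lies on chromosome 4 (7355601 to 7387241, plus strand). It was at 30.8, 35.5 and 34.6 FPKM in vehicle and 29.1, 33.8 and 30.6 in Chrdl1 libraries. The groups overlapped, and it led the ether-à-go-go class of 8 members in all 6 libraries. Kcnh1 averaged 14.3, Kcnh7 7.91 and Kcnh5 5.97 FPKM, and Kcnh3 0.104.

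Leak channels were led by Kcnk9, an acid-sensitive two-pore channel, on chromosome 7 (113903756 to 113937655, minus strand). Its 1188-base transcript was at 25.2, 25.4 and 17.5 FPKM in vehicle and 25.3, 21.3 and 24.8 in Chrdl1 libraries. Kcnk1 followed at a mean of 14.7 FPKM, and Kcnk3, a close relative of Kcnk9, at 4.65. Of the 13 two-pore members, 9 averaged at least 1 FPKM. Kcnma1, the pore of the large-conductance calcium-activated channel, was at 7.82 to 12.2 FPKM, and its neuronal beta subunit Kcnmb4 at 10.1 to 14.6. The small-conductance subunits Kcnn1, Kcnn2 and Kcnn3 averaged 1.82, 1.43 and 1.74 FPKM. Kcnn4, the intermediate-conductance channel of blood cells, averaged 0.0535. No inward rectifier reached a mean of 10 FPKM. The highest was Kcnj3, a G-protein-gated subunit, at 7.09 to 10.8 FPKM, and 8 of the 15 members averaged at least 1.

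**Figure D2:**
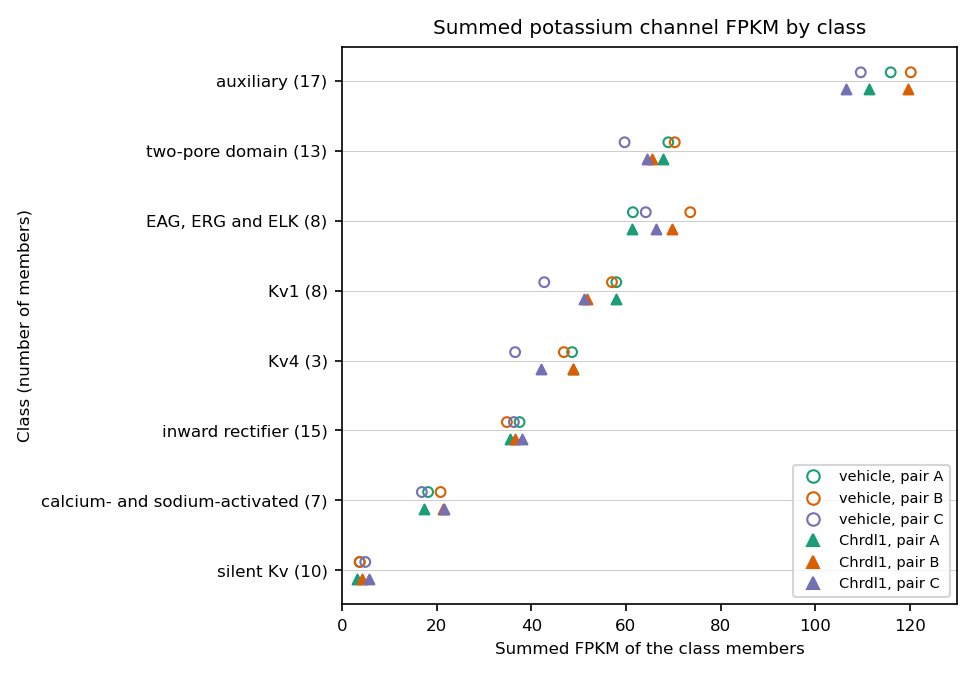
Summed FPKM of the members of 8 classes (horizontal, from 0) in each library, with the number of members in brackets; open circles are vehicle, filled triangles Chrdl1, and colours are pairs. The Kv1 class runs from 42.7 FPKM in the vehicle library of pair C to 58.0 in that of pair A, while the 15 inward rectifiers stay between 34.8 and 37.9.

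Shares of the family total were computed by class. Auxiliary subunits made up 19.9% to 23.3% of the summed FPKM, two-pore channels 11.7% to 12.7% and inward rectifiers 6.1% to 7.7%. Neighbours in the order of means were mostly not separated. Of the 24 neighbouring pairs among the 25 highest members, the ranges over 6 libraries parted only Kcnip1 from Kcnd3.

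Some members listed at 0 cannot be read as not expressed. Kcnip2 and Kcnk6 are listed as having 2 copies in the genome, and both were at 0 in every library. Of the 558 transcripts in the table with more than 1 copy, 76.0% were at 0 in all 6 libraries, against 16.5% of the 16808 with 1 copy. Kcnk18, listed with 1 copy, was also at 0.

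Chrdl1 libraries were set against vehicle libraries to see if 12 h of added Chrdl1 alters RGC expression. No potassium channel gene changed by the test. Of the 91 members, 56 passed the filter of at least 1 FPKM in at least 3 libraries. In limma on log2(FPKM + 1), adjusted over all 10390 tested transcripts, 0 of the 56 had an adjusted p under 0.05, as did 0 of all transcripts tested (percent called 0). Here and below, "percent called" is the share of all transcripts in a comparison that met the same description. It is not the share of the members or listed genes. The smallest adjusted p among members was 0.9998. With the title code as a replicate block it was 0.872, again with 0 members called (percent called 0). At an unadjusted p under 0.05 there were 0 members with or without the block. With limma voom on the recovered reads there were 0, and with the block 3, Kcnh5 and Kcnd3 among them, all higher and with an adjusted p of 0.928.

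Fold changes of the members were small and of both signs. On the log2(FPKM + 1) scale, which understates changes of low genes, they ran from -0.23 for Kcnip3 to 0.23 for Kcnh5. Of 56 members, 30 were positive, against 38.4% of all tested transcripts, and the median was 0.039 against -0.028. The median of the members was -0.051, 0.0030 and 0.050 in pairs A, B and C, and -0.051 when the pair C vehicle library was left out. The 95% interval of a member's log2 fold change had a median half-width of 0.47, and of 0.25 with the block.

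The direction was the same in all 3 pairs for 15 of 56 members (26.8%), a share near that of all tested transcripts (27.1%). Higher in all 3 pairs were 8 (percent called 7.55) and lower 7 (percent called 19.5). Of the higher members, the 5 with the smallest unadjusted p included Kcnc1, Kcnd3, Kcnk10 and Kcnt1. Kcnc1 was at 9.16, 12.4 and 10.5 FPKM in vehicle and 10.3, 12.7 and 11.8 in Chrdl1 libraries, and the groups overlapped. Its log2 fold change was 0.12 ± 0.14 (SE), and that of Kcnd3 was 0.12 ± 0.14, or -0.0241 when the pair C vehicle library was left out. Kcnk10, a mechanically gated leak channel, was at 0.16 ± 0.23, and Kcnt1, a sodium-activated channel, at 0.14 ± 0.23. Each of these limma adjusted p-values was 0.9998. Their size moved when 1 library was left out, which also unbalances the pairs. Kcnc1 was at 0.0203 and Kcnt1 at 0.0124 without the pair A vehicle library, and Kcnk10 at 0.00836 without that of pair C. With a whole pair left out, Kcnc1 ran from 0.0955 to 0.158 and Kcnd3 from 0.0589 to 0.161. Kcnk10 then ran from 0.113 to 0.206 and Kcnt1 from 0.0265 to 0.203.

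Of the members lower in all 3 pairs, the 5 with the smallest unadjusted p were Kcnk15, Kcnh2, Kcnip4, Kcnmb4 and Kcna4. Kcnk15, a two-pore subunit, was at 4.79, 4.16 and 4.89 FPKM in vehicle and 3.49, 4.00 and 4.48 in Chrdl1 libraries, a log2 fold change of -0.17 ± 0.15 (SE), and pair A carried most of it. Kcnh2 was at -0.11 ± 0.10 and Kcnip4 at -0.18 ± 0.19. Kcnmb4 was at -0.13 ± 0.14 and Kcna4, an inactivating shaker-related subunit at a mean of 1.08 FPKM, at -0.18 ± 0.20. These too moved when libraries were left out, and leaving out 1 library unbalances the pairs. Without the pair A vehicle library Kcnmb4 was at -0.0307. Without the pair A Chrdl1 library Kcna4 was at -0.0493 and Kcnh2 at -0.0604. Kcnip4 was at -0.0732 without the pair C vehicle library. With a whole pair left out, Kcnmb4 ran from -0.179 to -0.0821 and Kcna4 from -0.211 to -0.147. Kcnh2 then ran from -0.126 to -0.0733, Kcnip4 from -0.258 to -0.141 and Kcnk15 from -0.235 to -0.0741 (without pair A). The smallest unadjusted p of any member belonged to Kcnk3, at -0.22 ± 0.15 (limma adjusted p = 0.9998), which was higher in pair C and lower in the other pairs.

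**Figure D3:**
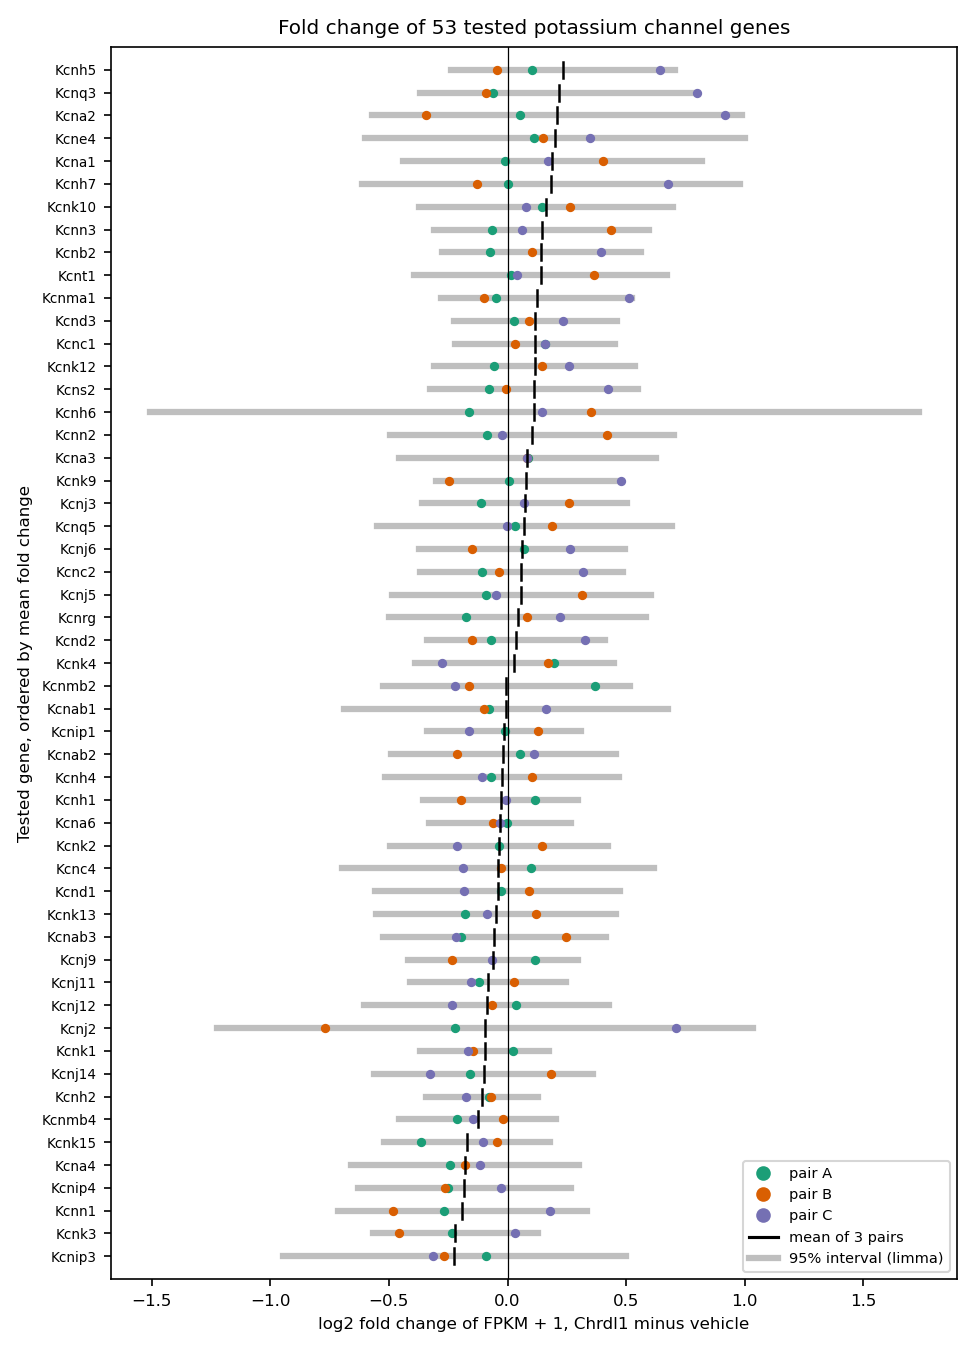
log2 fold change of FPKM + 1, Chrdl1 minus vehicle (horizontal), of 53 of the 56 tested members; coloured points are the 3 pairs, black ticks their mean and grey bars the 95% limma interval without the block. Means run from -0.23 to 0.23, every interval spans 0, and points of pair C lie far to the right for Kcna2, Kcnq3 and Kcnh7.

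Among the members, large differences between the libraries of a pair were most frequent in pair C. Over all tested transcripts they were most frequent in pair B. In pair C, 6 of 56 members differed by more than 0.5 on the log2 scale, all higher with Chrdl1 (percent called 2.47 in either direction and 1.5 for higher). The counts were 0 of 56 in pair A (percent called 0.568) and 1 in pair B (percent called 3.3), Kcnj2. The size of 0.5 was chosen after the values were seen. The 6 members were Kcna2 (0.92), Kcnq3 (0.80), Kcnj2 (0.71), Kcnh7 (0.68), Kcnh5 (0.64) and Kcnma1 (0.51). In pairs A and B these 6 ran from -0.77 to 0.10. The vehicle library of pair C was the lowest of the 6 libraries for each of them but Kcnj2, which was lowest in the Chrdl1 library of pair B. The tested members had a median transcript length of 2510 bases, against 2136 over all tested transcripts. With a loess trend on transcript length removed from each library, 8 of 56 members differed by more than 0.5 in pair C (percent called 2.29). Kcna2, Kcnq3 and Kcnh7 were at 0.96, 0.69 and 0.64. The set changed: Kcnma1 fell to 0.415, and Kcnk9 (0.591), Kcns2 (0.504) and Kcne4 (0.504) entered.

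The pairs differed far more than the treatments. Of the variance of log2(FPKM + 1) over the tested members, the title code took up 80.3% and treatment 5.17%. Over all tested transcripts the shares were 88.9% and 3.91%. The code has more levels than treatment and so can take up more. A limma F-test of the codes called 27 of 56 members (48.2%) at an adjusted p under 0.05, a share near that of all tested transcripts (percent called 47.4). Libraries of a code may come from 1 preparation, so the test says only that libraries of different codes differed by more than those sharing one. Of the 56, 12 were called and highest in pair A (percent called 11), 9 in pair B (percent called 13.7) and 6 in pair C (percent called 22.8). As shares of the called, that is 44.4%, 33.3% and 22.2% of the 27 members, beside 23.2%, 28.8% and 48.0% of all called transcripts. Called and lowest in pair C were 12 of the 56 (percent called 11.6), in pair B 9 (percent called 18.4) and in pair A 6 (percent called 17.4). These are 44.4%, 33.3% and 22.2% of the 27, beside 24.4%, 38.8% and 36.8% of all called transcripts.

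The pore subunits that were lowest in pair C included Kcnh7 (adjusted p = 0.00202, limma F-test). Kcnh7, another ERG channel, was at 7.13, 11.6 and 4.02 FPKM in vehicle and 7.13, 10.5 and 7.02 in Chrdl1 libraries. Pair B was highest in both groups. Kcnab1 was also highest in pair B, at 24.7 and 23.0 FPKM against 12.6 to 15.4 in the other 4 libraries (adjusted p = 6.17e-05), and lost the call without pair B (0.294). Kcnc4 was highest in pair A, at 18.5 and 19.9 FPKM, against 10.2 to 14.4 elsewhere (adjusted p = 0.000128). The summed RGC markers (17 measured of 18) were at 4170, 3362 and 3539 FPKM in vehicle and 4190, 3345 and 3129 in Chrdl1 libraries, and their part in these differences was not tested.

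Other members were lowest in pair B. Kcne4, a single-pass subunit that inhibits several channels, was at 1.90, 0.660 and 1.87 FPKM in vehicle and 2.13, 0.840 and 2.65 in Chrdl1 libraries (adjusted p = 0.000989), from 6 to 40 reads. Kcnj2, a strong inward rectifier, was at 4.33, 1.98 and 2.82 FPKM in vehicle and 3.58, 0.75 and 5.25 in Chrdl1 libraries (adjusted p = 0.00430). Without pair B neither was called, with an adjusted p of 0.631 and 0.944. With no filter on low values Kcnj2 (0.0825) and Kcnh7 (0.0513) were not called. The sums of several lists of markers of other cells were also lowest in pair B. Of the 18 microglial markers, 16 were lowest in both its libraries, with the sums given above. Astrocyte and Müller glia markers (13) summed to 187 and 129 FPKM there and to 1008 to 1658 elsewhere. Apoe alone was at 104 and 58.9 FPKM there and 908 to 1490 elsewhere. Of these 13 markers, 5 were lowest in both pair B libraries. Endothelial and mural markers (11) summed to 19.98 and 14.0 FPKM against 85.0 to 140, with 6 of 11 lowest. Acta2 alone was at 10.0 and 7.08 FPKM against 73.4 to 115. Fibroblast markers (7, Col1a2 at 0) summed to 28.8 and 18.8 FPKM against 43.7 to 117, with 4 of 7 lowest. For these counts of lowest markers, the share over all transcripts was not computed. By the F-test of title codes, an unlike measure, the percent called and lowest in pair B was 18.4. The part of these cells in the levels of Kcne4 and Kcnj2 was not tested.

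**Figure D4:**
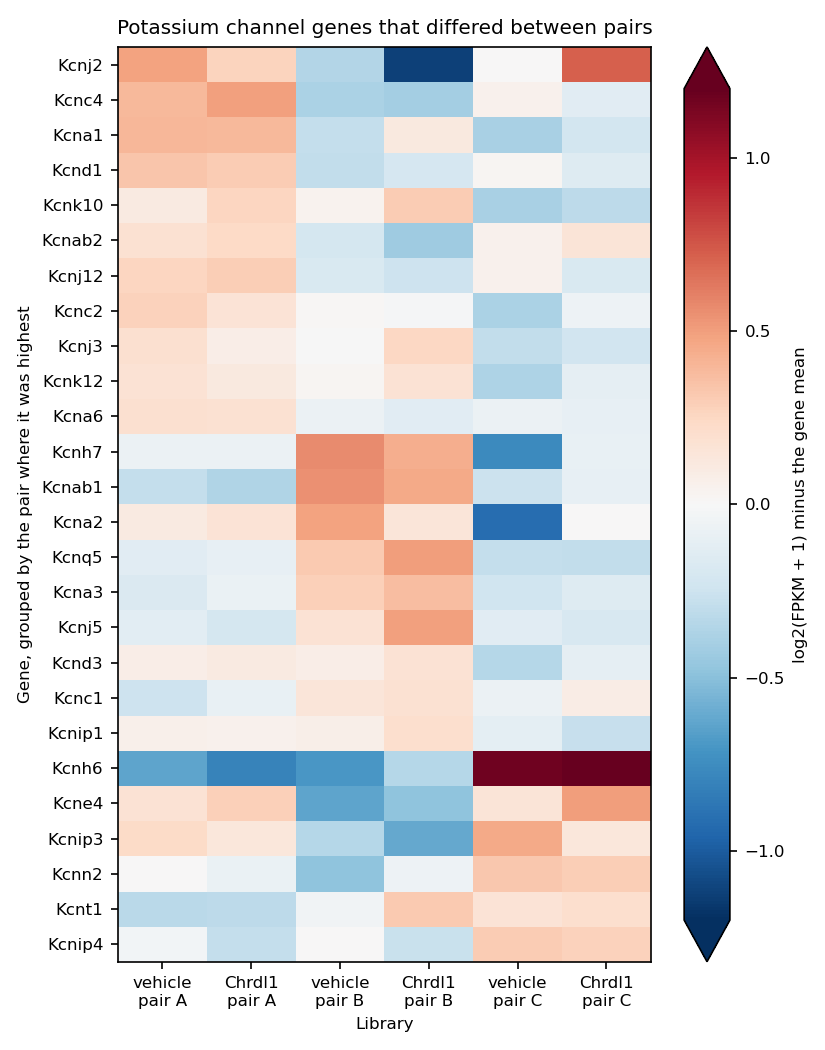
log2(FPKM + 1) minus the gene's mean (colour, clipped at the ends of the scale) in each library (columns) for 26 of the 27 members called between title codes, grouped by the pair in which they were highest. Kcnh6 is the most extreme, low in pairs A and B and high in both pair C libraries, and the vehicle library of pair C is the lowest of the 6 for Kcna2 and Kcnh7.

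A small set of members stood out in pair C. With both of its libraries at least 3-fold above each of the other 4, and at 0.5 FPKM or more, 5 of 68 members that reached 0.5 FPKM anywhere met this description (7.35%), and 208 of 11718 transcripts did (percent called 1.78). Members 3-fold below in pair B numbered 0 (percent called 1.91). There were also 0 above in pair A (percent called 0.00853), below in pair A (percent called 0.0427), above in pair B (percent called 0.0341) or below in pair C (percent called 0.00853). The fold was chosen after the values were seen. Kcnj15, Kcnv2 and Kcng4 reached 0.5 FPKM only in pair C, so they entered the count through the libraries where they were high. The 2 shares therefore describe the selection and do not measure an excess in the family. Kcnh6, an ERG channel on chromosome 10 (94207336 to 94228191, plus strand), was at 1.36, 1.27 and 7.23 FPKM in vehicle and 1.11, 1.90 and 8.10 in Chrdl1 libraries. It had the widest range of code means of the family, 1.96 on the log2 scale (adjusted p = 1.01e-06, limma F-test). Without pair C it was not called (0.384).

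The other members of this set did not pass the filter. With no filter on low values the test of title codes called 22 of 88 members (25%), beside a percent called of 28.7 over all transcripts. All 4 of these were among them, with a limma adjusted p of 0.00375 for Kcna5, 0.00164 for Kcnj15, 0.00164 for Kcnv2 and 0.00175 for Kcng4. They were chosen for this difference, so these values only describe it. Kcna5, a delayed rectifier, was at 0.656, 0.418 and 2.52 FPKM in vehicle and 0.284, 0.363 and 2.84 in Chrdl1 libraries. Kcnj15, an inward rectifier, was at 2.03 and 2.12 FPKM in pair C, from 80 and 76 reads, and at 0 to 0.232 elsewhere, from 0 to 5 reads. Kcnv2, a silent subunit known from photoreceptors, where its loss causes a cone dystrophy, was at 1.14 and 0.986 FPKM in pair C and at 0.050 to 0.132 elsewhere. Kcng4, a silent subunit on chromosome 19 (52270907 to 52282877, minus strand), was at 0.850 and 1.04 FPKM in pair C, from 92 and 103 reads. Elsewhere it was at 0 to 0.080. Kcnj10, the inward rectifier of Müller glia and astrocytes, was at 0.735 and 1.53 FPKM in pair C and 0.091 to 0.288 elsewhere, short of the 3-fold mark.

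Markers of other cells were also higher in pair C. Crx, a photoreceptor and bipolar cell transcription factor, was at 44.4 and 45.5 FPKM in pair C and 2.15 to 4.88 elsewhere. Gnat2, a cone transducin subunit, was at 49.0 and 54.2 FPKM against 1.47 to 2.60. Grm6, of bipolar cells, was at 11.3 and 12.7 FPKM in pair C. In both pair C libraries, 7 of 11 photoreceptor markers, 5 of 8 bipolar markers and 10 of 13 astrocyte and Müller glia markers were higher than in any other library (Kcnj10 is on the last list). So were 11 of 18 microglial, 6 of 11 endothelial and mural, 5 of 7 fibroblast and 6 of 10 amacrine cell markers. The share of all transcripts that met this description was not computed, so these counts have no background beside them. By the F-test of title codes, an unlike measure, the percent called and highest in pair C was 22.8. Fibroblast markers summed to 108 and 117 FPKM in pair C and 18.8 to 47.4 elsewhere, and endothelial and mural markers to 140 and 136 against 14.0 to 93.4. Amacrine cell markers summed to 78.7 and 81.3 FPKM in pair C and to 65.5 to 81.5 elsewhere, which overlaps. The rod gene Gnat1 was at no more than 0.287 FPKM. Other cone genes on the list were low too. Arr3 was at 0.586 and 0.846 FPKM in pair C, with 0.645 in the Chrdl1 library of pair B. Opn1sw was at no more than 0.161 FPKM and was not highest in pair C. The part of these cells in the levels of the 5 channel genes was not tested.

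**Figure D5:**
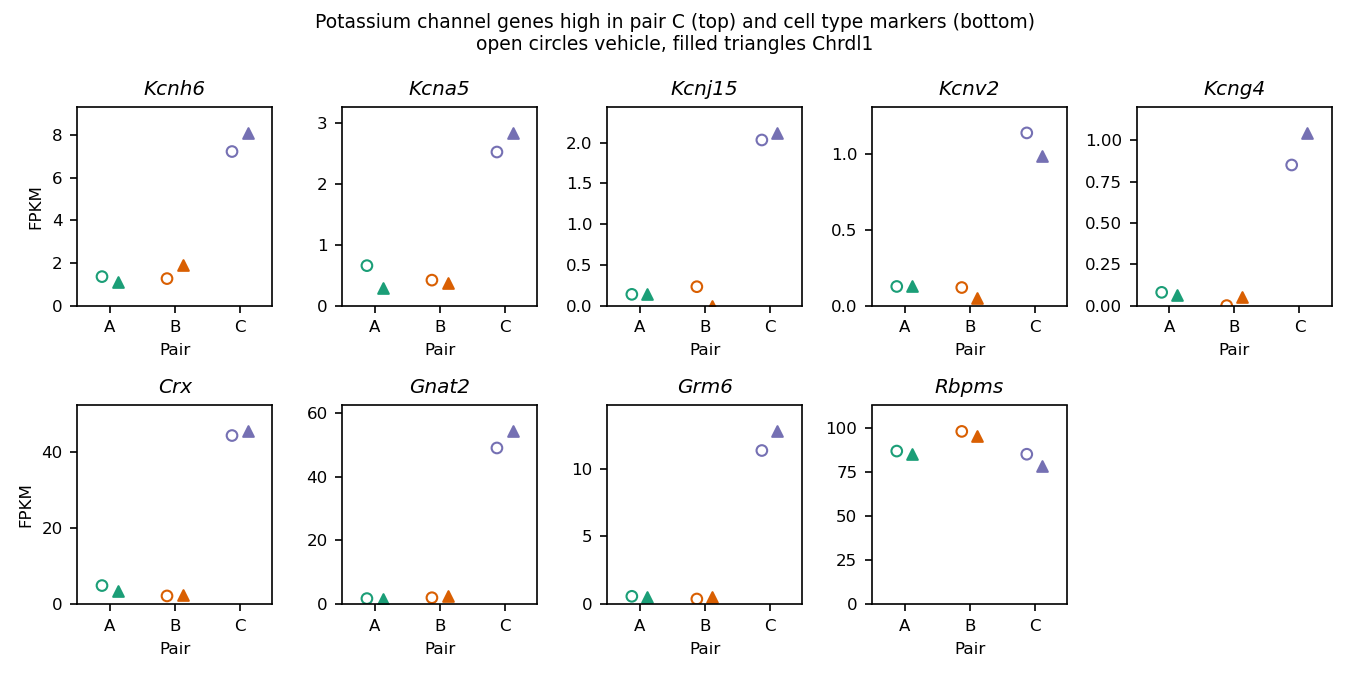
FPKM (vertical, from 0, own scale in each panel) by pair for the 5 members high in pair C (top) and for Crx, Gnat2, Grm6 and the RGC gene Rbpms (bottom). Both pair C libraries sit above the other 4 in every panel but Rbpms, where they are the 2 lowest, and Kcnh6 reaches 7.23 and 8.10 FPKM.

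The sequences upstream of these 5 genes are printed because these genes were selected by 1 shared pattern, high in both pair C libraries. They are the 250 bases before the annotated start from RefSeq, build GRCr8, 5′ to 3′ on the gene's strand, with capitals at GGGCGG (an Sp1-type box) and TAATCC (a core bound by Crx and related homeodomain factors), each searched on both strands (reverse complements CCGCCC and GGATTA). The motifs do not overlap each other. Of 33469 such upstream windows in the table, 30.5% hold GGGCGG and 6.3% TAATCC.
Kcnh6, chr10:91449401-91449650, plus strand: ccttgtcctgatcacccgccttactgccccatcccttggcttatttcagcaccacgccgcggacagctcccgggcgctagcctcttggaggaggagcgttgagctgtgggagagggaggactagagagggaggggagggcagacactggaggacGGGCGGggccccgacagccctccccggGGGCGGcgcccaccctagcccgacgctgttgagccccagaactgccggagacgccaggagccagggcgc
Kcna5, chr4:161043810-161044059, minus strand: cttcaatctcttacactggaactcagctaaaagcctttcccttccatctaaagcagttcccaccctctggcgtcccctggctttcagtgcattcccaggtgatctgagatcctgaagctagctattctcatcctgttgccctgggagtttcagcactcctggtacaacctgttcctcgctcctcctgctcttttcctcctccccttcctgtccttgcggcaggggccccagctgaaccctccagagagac
Kcnj15, chr11:48070700-48070949, plus strand: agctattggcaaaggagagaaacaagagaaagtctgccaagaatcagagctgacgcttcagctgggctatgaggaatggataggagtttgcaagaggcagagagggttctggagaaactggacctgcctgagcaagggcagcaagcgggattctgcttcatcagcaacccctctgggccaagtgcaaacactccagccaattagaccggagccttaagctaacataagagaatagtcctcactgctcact
Kcnv2, chr1:234412924-234413173, plus strand: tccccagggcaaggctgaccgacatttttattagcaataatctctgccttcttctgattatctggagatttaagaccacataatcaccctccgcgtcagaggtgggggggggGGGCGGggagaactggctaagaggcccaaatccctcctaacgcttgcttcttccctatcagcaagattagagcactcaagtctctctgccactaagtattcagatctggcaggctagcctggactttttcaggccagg
Kcng4, chr19:64597889-64598138, minus strand: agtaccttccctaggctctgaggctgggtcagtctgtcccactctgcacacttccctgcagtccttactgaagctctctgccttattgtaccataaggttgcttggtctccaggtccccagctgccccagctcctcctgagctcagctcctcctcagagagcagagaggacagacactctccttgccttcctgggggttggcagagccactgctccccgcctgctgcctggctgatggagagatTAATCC

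The 5 windows did not share one composition. Kcnh6 holds 18 CG steps and 2 GGGCGG boxes, where the median of all windows is 5 CG steps. Kcnv2 holds 5 CG steps and 1 GGGCGG box. Kcna5 and Kcnj15 hold 3 CG steps each and neither motif, and Kcng4 holds 1 CG step and the only TAATCC. A match is a run of letters and not a shown binding site. Upstream windows were found for 62 of the 91 members, too few (68.1%) to describe the family as a whole.

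Proteins that partner potassium channels were read from a separate list of 40 genes. Of 37 found in the table, 34 were tested. Between treatments 0 were called with or without the block (percent called 0), and 20 were called between title codes. Over all tested transcripts, the percent called between title codes was 47.4. Their median log2 fold change was -0.045, with 10 positive and 24 negative. The most abundant were the calmodulin genes, whose protein is a fixed subunit of small-conductance and Kcnq channels. Calm3 and Calm2 averaged 599 and 358 FPKM. Gnb1, encoding a G-protein beta subunit that opens Kcnj3-type channels, averaged 150 FPKM. Vapa, an endoplasmic reticulum protein that binds Kcnb channels, averaged 134 FPKM, and the scaffold gene Dlg4 121. All 4 hyperpolarization-activated cation channel genes were tested, and 0 were called between treatments. Hcn2, Hcn3 and Hcn4 averaged 26.1, 27.3 and 10.3 FPKM.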

How the data were processed

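The authors deposited FPKM values, 1 transcript per row, for 6 libraries; reads were processed with STAR 2.4.0k and HOMER 4.8.3 on rn6, per the submitters' processing notes. The members and gene lists were chosen with earlier results of these data known. Transcripts reaching an FPKM of 1 in 3 or more libraries entered the tests, made with limma 3.58.1 (R 4.3.3; trended variance, Benjamini-Hochberg adjustment) on log2(FPKM + 1), for treatment and, by F-test with treatment in the model, for title codes. Whole reads were recovered from the FPKM steps (99.87% to 99.96% of values whole). Same-code libraries deviated together (correlations 0.82, 0.86 and 0.84), so the code was also fitted as a block. Named members were the 12 highest, each class leader, the 5 higher and 5 lower with the smallest p among those of 1 direction in all pairs, and the 6 smallest p and 6 widest ranges between codes; others were named to fill out a class or after their values were seen. Some genes that the rule takes in are not reported here. The fits were also run on simulated data with the same spread for every gene, which does not measure their power in these data. Tables were made with Python 3.11.15 and pandas 2.3.3.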

Additional observations from a re-analysis of the deposited data

How the results depend on the processing

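No member or other transcript was called between treatments under any alternative run, and the replicate block changed no call (0 called; median of the members 0.0393 with it). That median was 0.0971 with voom on the recovered reads, ran from -0.0513 (without the vehicle library of pair C) to 0.0700 when libraries were left out, and was -0.0177 without pair C. Without the vehicle library of pair C, Kcnd3 was at -0.0241 and Kcna2 at -0.195, and without pair C Kcna2 was at -0.146, all opposite to their log2 fold change over 6 libraries. Leaving out 1 library of a pair also unbalances the pairs. With any whole pair left out, Kcnd3 stayed positive, at 0.0589 to 0.161. Left-out ranges were -0.0241 to 0.2 for Kcnd3, -0.195 to 0.503 for Kcna2, 0.0203 to 0.219 for Kcnc1, 0.00836 to 0.361 for Kcnk10, 0.0124 to 0.33 for Kcnt1, -0.207 to -0.0307 for Kcnmb4 and -0.277 to -0.0493 for Kcna4. Between title codes, leaving out libraries gave 2826 to 5581 transcripts in place of 4930, with 3148 without the Chrdl1 library of pair A and 2826 without pair A, where fewer samples entered. A filter at FPKM of 5 tested 28 members and called 17 (60.7%), beside 3793 of 7973 transcripts (47.6%). Depth limits members under 1 FPKM, many of which rest on few reads.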
